A study of Mus musculus with 2 samples.

Results

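Insm1, Dlx1, Dlx2, Dlx5, Dlx6, Dlx6os1, Sox4, Sox11 and Dcx were followed as a set of neurogenic and immature neuron genes across the cell types of the postnatal mouse hypothalamus. They were chosen by name, and all 9 were among the 20210 genes of the deposited table that merges both libraries of the study. The study profiled viable reporter-positive cells of CD-1 mice at postnatal day 10, taken by sorting from arcuate nucleus-median eminence tissue, by droplet single-cell RNA sequencing, which counts tags near the 3′ end of each transcript as unique molecular identifiers (UMIs). The dHet library came from mice of genotype Ins2-Cre;tdTomato+/-;Irx3/5+/-, which carry 1 mutant copy of each of the homeobox genes Irx3 and Irx5. The control library came from Ins2-Cre;tdTomato+/- mice. According to the labels, the tissue of 5 mice was pooled for each library. Cre under the Ins2 promoter switches on the tdTomato reporter in both genotypes, so cells in which that driver had never been active were not collected. There was 1 library per genotype and therefore no replicate. Intervals below are 95% intervals for counting error alone. How far animals of 1 genotype vary could not be measured.

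Neurons arise from dividing progenitors that pass through a short series of transcription factors before they leave the cycle and mature. Insm1 is a zinc-finger factor of cells that are leaving the progenitor state, and it also acts in endocrine cells. The Dlx genes are homeobox genes of the forebrain GABA lineage and lie as pairs that share enhancers, Dlx1 with Dlx2 and Dlx5 with Dlx6. Dlx6os1, also called Evf2, is a long noncoding RNA read from the strand opposite Dlx6. Sox4 and Sox11 are related factors that turn on genes of newborn neurons, and they are used by oligodendrocyte precursors as well. Dcx encodes doublecortin, a microtubule-binding protein of migrating young neurons. Adult hypothalamic neurons and glia are mostly described by peptides and transmitters, so the question here was which cells still carried these earlier genes on day 10.

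In the mouse genome (GRCm38, GENCODE M21 annotation) Dlx1 (ENSMUSG00000041911) lies at chr2:71528113-71533981 on the plus strand, next to Dlx2 (ENSMUSG00000023391) at chr2:71543408-71546754 on the minus strand. Dlx6 (ENSMUSG00000029754) at chr6:6863334-6868568 on the plus strand and Dlx5 (ENSMUSG00000029755) at chr6:6877805-6882085 on the minus strand form the other pair, and Dlx6os1 (ENSMUSG00000090063) spans chr6:6820189-6871592 on the minus strand. Insm1 (ENSMUSG00000068154) lies at chr2:146221921-146225020 on the plus strand. Sox4 (ENSMUSG00000076431) lies at chr13:28948919-28953713, Sox11 (ENSMUSG00000063632) at chr12:27334264-27342574 and Dcx (ENSMUSG00000031285) at chrX:143855842-143933311, each on the minus strand. Dlx6 lies wholly inside the span of Dlx6os1, with 5235 bases of overlap but 0 bases shared between exons. Sox4 shares 2616 exonic bases with the noncoding gene Gm26735 on the opposite strand, and Dlx1 shares 335 with Dlx1as. The sources used here do not say whether counting used strand, so reads of such pairs cannot be told apart with certainty.

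Dlx2 and Dlx6os1 had parallel levels across the clusters although they lie on different chromosomes. The 250 bases before an annotated start of each are therefore shown for comparison. Both windows are from RefSeq on build GRCm38.p6, written 5′ to 3′ along the minus strand, and neither holds an annotated exon. Capitals mark TAATTA and, on the opposite strand, TAATTG, which appears as CAATTA. These are forms of the core that many homeodomain proteins bind, Dlx proteins among them.
Dlx2 chr2:71546755-71547004: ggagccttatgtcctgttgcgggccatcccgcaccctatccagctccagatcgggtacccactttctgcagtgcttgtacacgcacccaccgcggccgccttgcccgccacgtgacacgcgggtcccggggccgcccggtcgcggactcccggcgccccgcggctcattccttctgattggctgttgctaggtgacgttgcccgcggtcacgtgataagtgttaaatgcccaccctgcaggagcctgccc
Dlx6os1 chr6:6861684-6861933: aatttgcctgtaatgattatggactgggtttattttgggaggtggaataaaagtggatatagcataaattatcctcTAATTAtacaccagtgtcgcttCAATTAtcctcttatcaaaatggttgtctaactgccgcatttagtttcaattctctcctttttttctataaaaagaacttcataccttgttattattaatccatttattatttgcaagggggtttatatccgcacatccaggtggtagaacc
The Dlx2 window is 66.4% G or C with 24 CG dinucleotides and has neither motif. The Dlx6os1 window is 34% G or C with 3 CG dinucleotides and has 1 match to each, which do not overlap. TAATTA was found on either strand in 4.84% of all 32851 promoter windows of the same length, and TAATTG in 7.17%. The median window was 52.4% G or C. Promoter entries were matched for 6 of the 9 genes.

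The merged table held 3939 dHet cells with 71827597 UMIs and 3479 control cells with 63100794 UMIs. The median cell had 17175 UMIs and 4925 genes in the dHet library and 16508 UMIs and 4907 genes in the control library. The libraries shared 4 cell barcodes. Irx3 had 43 UMIs in the dHet library and 95 in the control library, a ratio of 0.398 (0.271 to 0.576), and Irx5 had 110 in the dHet library and 182 in the control library, a ratio of 0.531 (0.415 to 0.677). Which part of each gene was altered is not given in the labels. Clusters led by Pomc, by Agrp and Npy, and by the tanycyte gene Crym fit the labelled tissue, and clusters led by Foxb1, Fezf1, or Avp and Vip, known for neighbouring hypothalamic nuclei, were also present.

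Cells were clustered without the 9 genes, so no level of the 9 shaped the cell types. Other genes given below, such as leading genes and cell type markers, did enter the clusters or their names. Levels are given as CPM, the UMIs of a gene per 1000000 UMIs of the cells summed. Of 33 clusters, 21 were neuron-like by broad neuronal markers, with 2897 dHet cells and 2254 control cells. The other named classes were astrocyte-like (438 dHet and 425 control cells), tanycyte-like (177 dHet, 215 control), oligodendrocyte precursor-like (81 dHet, 97 control), oligodendrocyte-like (39 dHet, 30 control), ependymal-like (25 dHet, 23 control), dividing cell-like (38 dHet, 58 control) and pars tuberalis or pituitary-like (14 dHet, 39 control). No cluster met the rule for neuronal progenitors, which needed at least 3 of 9 listed markers, among them Hes6, Dll1, Dll3, Neurog2 and Gadd45g, in 25% of its cells and 1 of them among its leading genes, with 8 of the 9 in the table. The name of the gene set therefore refers to what its members are known for, and most of their transcripts were in neuron-like cells. Neuron-like cells held 86.2% of all UMIs of the table but 97.9% to 98.8% of the UMIs of the 5 Dlx locus genes, 92.3% of those of Dcx, 89.8% of those of Insm1, 84.8% of those of Sox11 and 80.5% of those of Sox4.

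**Figure D1:**
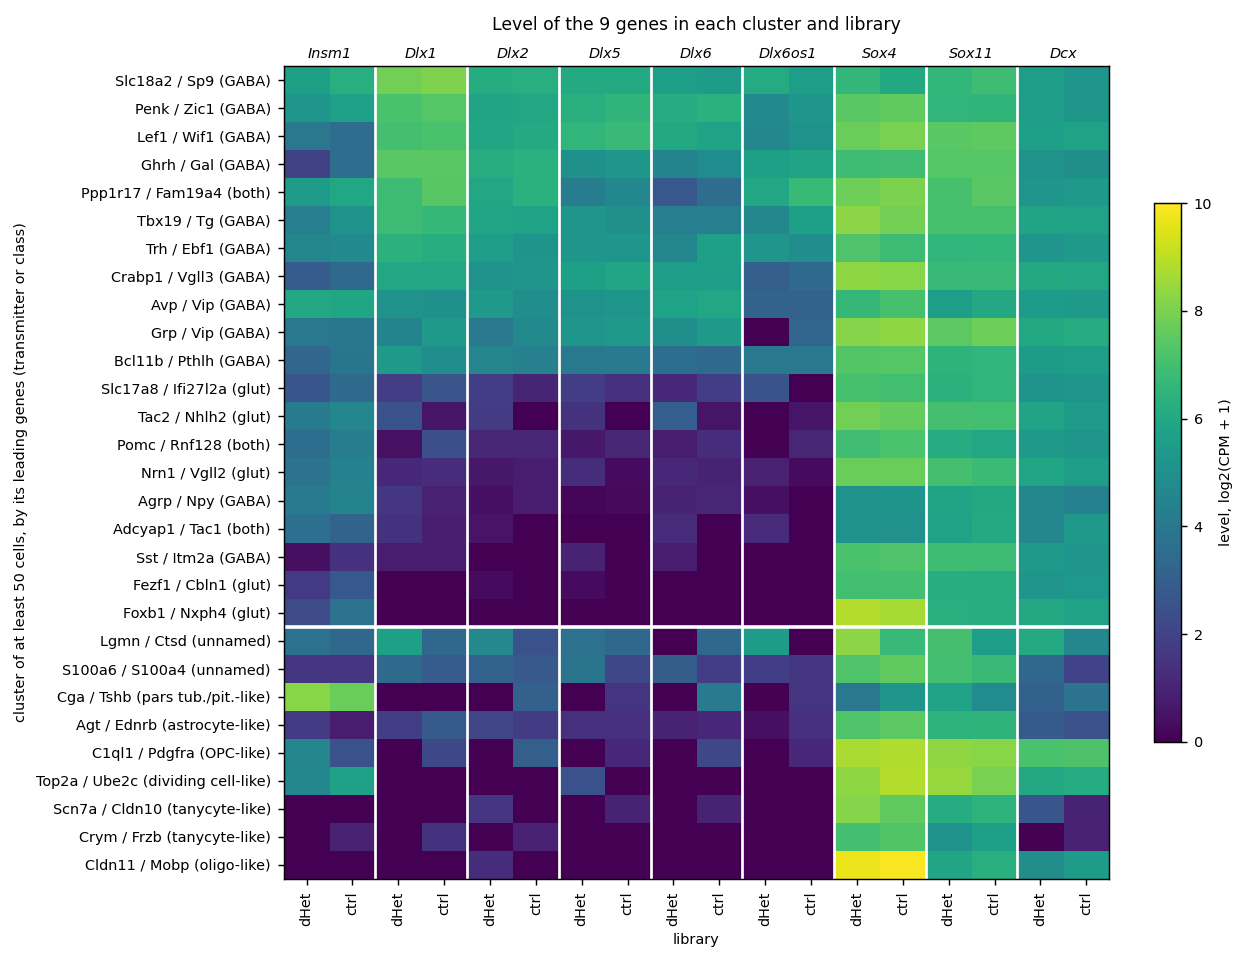
Level of each of the 9 genes, as log2 of CPM plus 1, in the 29 clusters with at least 50 cells, with the dHet library left of the control library for each gene. Dlx1, Dlx2 and Dlx5 are bright in the upper 11 neuron clusters and dark in the other 9, Dlx6 and Dlx6os1 are bright in most of the upper 11, while Sox4 and Sox11 are found in every cluster shown, glia included.

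The 5 Dlx locus genes divided the neurons sharply. Dlx1, a homeobox factor of forebrain interneurons, stood highest in a GABA cluster led by Slc18a2, Sp9 and Slc6a3, which encode the vesicular monoamine transporter, a zinc-finger factor and the dopamine transporter. In that cluster Dlx1 was at 232 CPM (210 to 257) in the dHet library and 266 CPM (238 to 296) in the control library. A GABA cluster led by Ghrh, the growth hormone-releasing hormone gene, followed with 171 CPM in dHet and 172 CPM in control cells. In the cluster led by Lef1 the values were 133 CPM in dHet and 139 CPM in control cells, and in that led by Tbx19 they were 113 CPM in dHet and 99.9 CPM in control cells. Intermediate levels were found in clusters led by Trh and Ebf1 (85.8 CPM in dHet and 73.1 CPM in control cells), Crabp1 (61.0 CPM in dHet and 62.4 CPM in control cells), Bcl11b (41.2 CPM in dHet and 28.5 CPM in control cells), Avp and Vip (33.2 CPM in dHet and 31.1 CPM in control cells) and Grp and Vip (21.6 CPM in dHet and 39.9 CPM in control cells). Among the 9 clusters just named, the intervals of the libraries lay apart in the Bcl11b cluster and overlapped in the other 8. Of 28 pairs of neighbours in the order of Dlx1 levels over both libraries, 6 had intervals that lay apart.

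Dlx2, Dlx5 and Dlx6 followed the same division. Of the 20 neuron-like clusters with at least 50 cells, 11 had at least 10 CPM of Dlx1, of Dlx2 and of Dlx5, 10 had that much Dlx6 and 8 that much Dlx6os1. Of the 12 clusters classed as GABA neurons by Slc32a1, Gad1 and Gad2, 10 passed that level for each of the 4 protein-coding genes and 7 for Dlx6os1. None of the 5 glutamate clusters passed it for any of the 5, and the highest glutamate value was 3.70 CPM, for Dlx1. Dlx2 was highest in the Ghrh cluster, at 73.4 CPM in dHet and 83.5 CPM in control cells. Dlx5 peaked elsewhere, in the Lef1 cluster, at 95.9 CPM in the dHet library and 108 CPM in the control library. Thus 86.1% of Dlx1 UMIs, 93.8% of Dlx5 UMIs and 94.8% of Dlx6 UMIs lay in GABA clusters, which held 54.6% of all UMIs. Outside the clusters named neuron-like, each of these genes reached 10 CPM over both libraries in 1 of 9 clusters. For Dlx6 this was the small Cga and Tshb cluster, and for the other 4 a shallow cluster led by Lgmn, from at most 10 UMIs in both libraries together. The Lgmn cluster had 7 of the 8 neuron markers and was left unnamed because of its depth, a median of 1096 UMIs. Its Dlx UMIs thus cannot be placed outside neurons. An unnamed cluster led by S100a6 (148 dHet and 206 control cells) stayed under that level over both libraries but had more Dlx UMIs. Dlx5 and Dlx6 together had 30 UMIs in its dHet cells and 12 in its control cells. Dlx1 and Dlx2 together had 27 UMIs in dHet and 25 UMIs in control cells.

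Some GABA clusters had few Dlx transcripts. Agrp and Npy neurons, which release GABA and drive feeding, had 2.02 CPM of Dlx1 in the dHet library (19 UMIs in 364 cells) and 0.901 CPM in the control library (5 UMIs in 191 cells). The cluster led by Sst, the somatostatin gene, and Itm2a had 2 UMIs of Dlx1 in each library, from 139 dHet cells and 123 control cells, and 0 UMIs of Dlx2 and of Dlx6os1 in both. These levels were within the range seen in glia. Astrocyte-like cells, which do not normally express Dlx1, had 2.56 CPM in the dHet library and 6.36 CPM in the control library, and tanycyte-like cells had 0 CPM in dHet and 0.942 CPM in control cells. In the Pomc cluster, which had transmitter genes of both kinds, Dlx1 was at 0.374 CPM in the dHet library (2 UMIs) and 4.47 CPM in the control library (12 UMIs), with intervals that lay apart. Glutamate clusters led by Fezf1 and by Foxb1 had 0 UMIs of Dlx1 in either library.

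The share of cells with a transcript gave the same picture when every cell was thinned to 4000 UMIs, which left 3664 dHet and 3087 control cells and dropped the shallower ones. In the Slc18a2 cluster 93.2% of dHet cells (84.7 to 97.7) and 87.5% of control cells (74.8 to 95.3) had a UMI of any of the 5 Dlx locus genes. The Ghrh cluster had 73.5% in dHet and 66.2% in control cells, and the Lef1 cluster 66.4% in dHet and 74.6% in control cells. Against these, Agrp and Npy neurons had 0.838% in the dHet library (3 of 358 cells) and 1.06% in the control library (2 of 188 cells), and the Sst cluster had none in 139 dHet and 121 control cells, which allows a UMI at this depth in up to 2.62% of dHet and 3.003% of control cells and sets no limit on cells that express the genes. Without thinning, that cluster had 4 UMIs of Dlx1, 3 of Dlx5 and 2 of Dlx6 over both libraries. Astrocyte-like cells had 1.68% in the dHet library and 2.87% in the control library. Their median depth before thinning was 6478 UMIs in dHet and 5653 UMIs in control cells, against 21283 UMIs in dHet and 22846 UMIs in control neuron-like cells. Whether a share as low as that of astrocyte-like cells reflects expression in those cells was not tested. Without thinning, Dlx1 alone was seen in 95.9% of dHet cells and 100% of control cells of the Slc18a2 cluster.

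**Figure D2:**
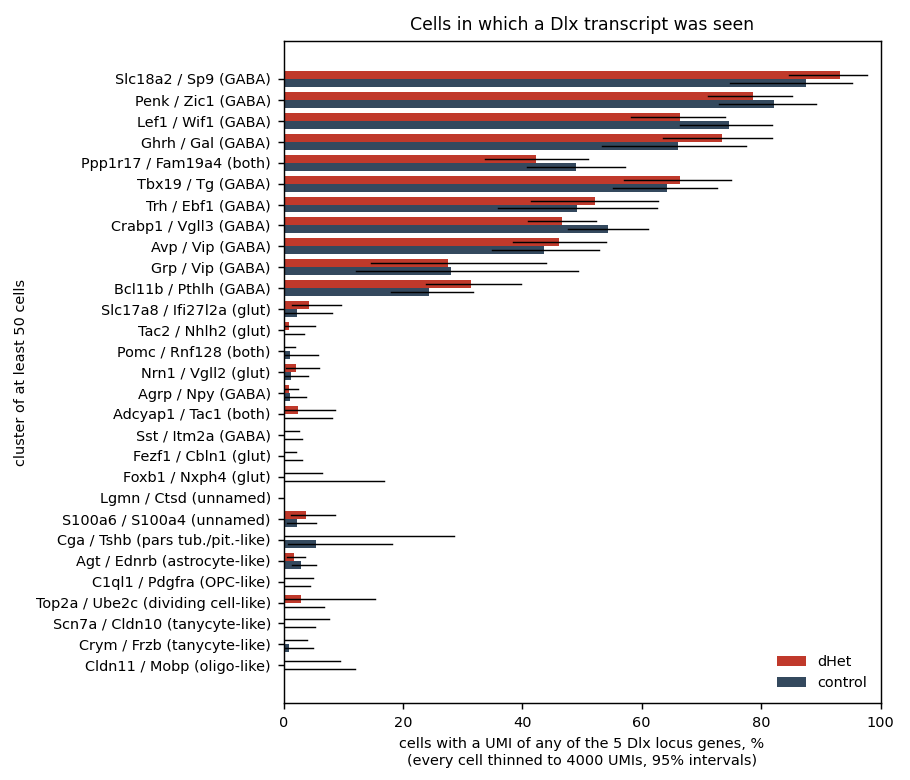
Percentage of cells with a UMI of any of Dlx1, Dlx2, Dlx5, Dlx6 and Dlx6os1 in each cluster of at least 50 cells, after thinning every cell to 4000 UMIs, with exact 95% intervals as black lines and no bar for the shallow Lgmn cluster, where 9 cells per library reached that depth. Bars of the dHet library lie above those of the control library, and the 11 upper clusters stand at 24.4% to 93.2% over both libraries while the remaining clusters stay at or under 5.41%.

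The cluster led by Ppp1r17 and Fam19a4 carried Dlx1 (117 CPM in the dHet library, 169 CPM in the control library) although its cells had both GABA and glutamate markers. Finer clustering divided it. One group, led by Lhx6, Lmo1 and St18, had Gad2 in 93.2% of its cells, and the other, led by Ppp1r17, Fam19a4 and Pdyn, had the vesicular glutamate transporter gene Slc17a6 in 78.8%. The Lhx6 group (68 dHet and 80 control cells) had Dlx1 at 180 CPM in dHet and 259 CPM in control cells and Dlx6os1 at 109 CPM in dHet and 158 CPM in control cells. The Ppp1r17 group (79 dHet and 86 control cells) had Dlx1 at 53.1 CPM in dHet and 57.7 CPM in control cells and Dlx6os1 at 26.5 CPM in dHet and 34.3 CPM in control cells. Dlx2 was at 22.4 CPM in dHet and 28.8 CPM in control cells of the Ppp1r17 group. These 3 transcripts were thus found in a group classed as glutamate once the clusters were finer. That group also had Gad2 in 24.2% and Slc32a1 in 20% of its cells. Whether those cells carried its Dlx transcripts was not tested. Its Dlx6 count was 0 in both libraries, with upper limits of 3.06 CPM in dHet and 2.87 CPM in control cells.

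The balance between the 2 Dlx loci changed from one GABA cluster to the next. Because UMIs near the 3′ end are not scaled by transcript length, the shares below compare clusters and not genes. Of the UMIs of Dlx1, Dlx2, Dlx5 and Dlx6 together, Dlx5 and Dlx6 made up 54.0% in the dHet library (48.7 to 59.3) and 62.8% in the control library (57.1 to 68.2) of the Avp and Vip cluster. They made up 11.7% in dHet and 12.4% in control cells of the Ppp1r17 cluster. The small Grp and Vip cluster had 64.6% (49.5 to 77.8, from 48 UMIs) in the dHet library and 54.9% (40.3 to 68.9, from 51 UMIs) in the control library, with intervals that overlapped those of the Avp and Vip cluster. Lower shares were found in the Crabp1 cluster (50.5% in dHet and 50.9% in control cells), the Lef1 cluster (45.8% in dHet and 43.9% in control cells), the Slc18a2 cluster (27.8% in dHet and 24.9% in control cells) and the Ghrh cluster (17.8% in dHet and 20.6% in control cells). In the Trh and Ebf1 cluster the intervals of the libraries lay apart, with 31.1% (26.2 to 36.3) in the dHet library and 44.9% (38.8 to 51.1) in the control library.

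Dlx6os1 and Dlx6, which occupy the same stretch of chromosome 6, did not run in parallel. Dlx6os1 made up 92.0% of the UMIs of the pair in the dHet library (86.3 to 95.8) and 90.5% in the control library (86.5 to 93.6) of the Ppp1r17 cluster. In the Avp and Vip cluster it made up 12.9% (7.86 to 19.7) in dHet and 11.2% (6.40 to 17.8) in control cells. The Ghrh cluster, which had the second smallest share from Dlx5 and Dlx6, had 69.8% in dHet and 67.1% in control cells. Across 29 clusters the log2 level of Dlx6os1 followed Dlx1 (Pearson's r = 0.958) and Dlx2 (r = 0.941) more closely than Dlx6 (r = 0.730), its neighbour. These values describe clusters of the same 2 libraries that differ in depth, and they are not independent samples.

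**Figure D3:**
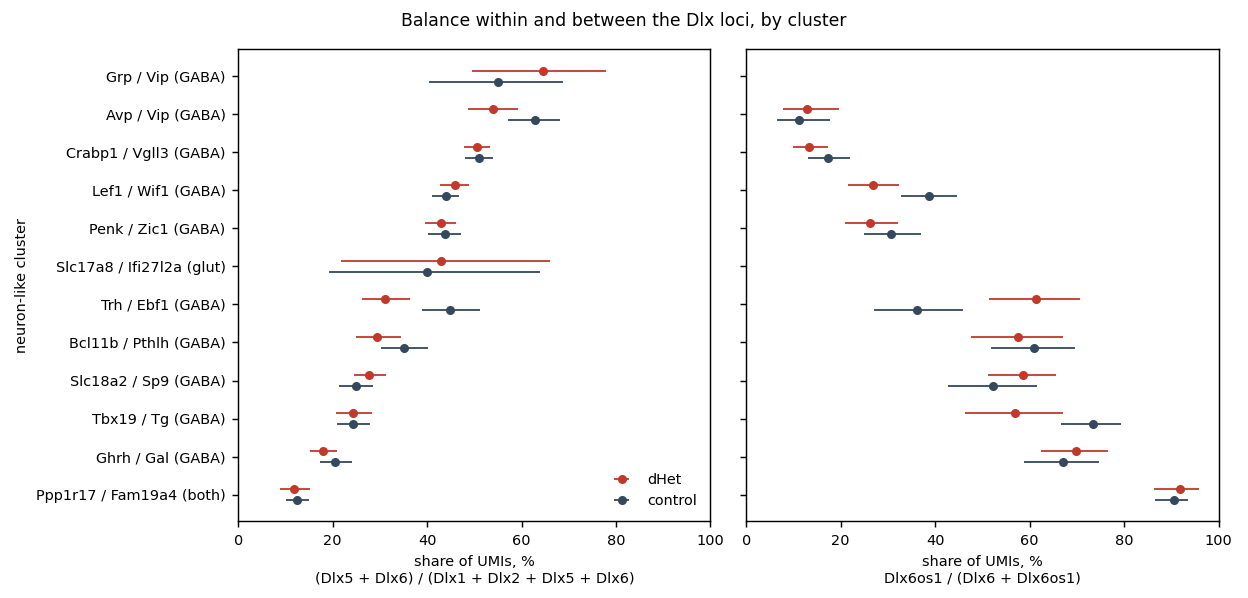
Share of UMIs, in percent with exact 95% intervals, that Dlx5 and Dlx6 take of Dlx1, Dlx2, Dlx5 and Dlx6 (left) and that Dlx6os1 takes of Dlx6 and Dlx6os1 (right), in neuron-like clusters with enough UMIs, with dHet points above control points. The Ppp1r17 cluster has the lowest left share and the highest right share in both libraries.

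Dlx transcripts were found in the same cells more often than in cells lacking the partner gene. Among thinned GABA cells, 21.7% of the 369 dHet cells with a Dlx1 UMI also had Dlx2, against 10.2% of the dHet cells without Dlx1. In the control library 25.8% of the cells with Dlx1 had Dlx2, against 8.77% of the cells without. Cells with Dlx6os1 had Dlx1 in 42.3% of dHet cells and 37.1% of control cells, while among GABA cells without Dlx6os1 it was in 18.7% of dHet cells and 20.6% of control cells. The contrast was smaller for Dlx6 and its antisense neighbour in the dHet library, where Dlx6 was found in 11.5% of cells with Dlx6os1 and 10.5% of cells without, and in the control library it was found in 14.3% of cells with Dlx6os1 and 10.2% of cells without. The differences between clusters enter these shares, and their part was not tested.

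Insm1 had a distribution of its own. Its highest level was outside neurons, in the pars tuberalis or pituitary-like cluster led by the pituitary hormone genes Cga and Tshb, with 294 CPM (209 to 402) in 14 dHet cells and 209 CPM (172 to 251) in 39 control cells. Among neurons it stood highest in the Slc18a2 cluster (49.9 CPM in the dHet library, 77.9 CPM in the control library) and the Avp and Vip cluster (64.6 CPM in dHet and 58.6 CPM in control cells). Insm1 reached 10 CPM in 9 of the 12 GABA clusters with at least 50 cells. It was near 0 in the Sst cluster, at 0.340 CPM in dHet and 1.70 CPM in control cells. In the Ghrh cluster, which was rich in Dlx1, it was at 2.95 CPM in dHet and 11.01 CPM in control cells. Unlike the Dlx genes it also passed 10 CPM in Agrp and Npy neurons (16.4 CPM in dHet and 21.1 CPM in control cells). It did so in 2 of the 5 glutamate clusters as well, up to 20.7 CPM. Tanycyte-like cells had 0 UMIs in the dHet library and 1 in the control library, and oligodendrocyte-like and ependymal-like cells had 0 in both.

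Sox4 and Sox11 were broad. Sox4 was at or above 10 CPM in all 29 clusters and was highest in oligodendrocyte-like cells, at 834 CPM (767 to 906) in the dHet library and 966 CPM (886 to 1051) in the control library. The gene was seen in 81.1% of thinned dHet and 86.2% of thinned control cells of that class, from 39 dHet and 30 control cells in all. Oligodendrocyte precursor-like cells had 422 CPM in dHet and 446 CPM in control cells. Among neurons, the glutamate cluster led by Foxb1, a gene of the mammillary region, came first with 456 CPM in dHet and 403 CPM in control cells, followed by the Crabp1 cluster with 319 CPM in dHet and 295 CPM in control cells. The lowest neurons were the Agrp and Npy cluster (33.0 CPM in dHet and 35.1 CPM in control cells) and the Adcyap1 and Tac1 cluster (33.8 CPM in dHet and 32.5 CPM in control cells), a range of 13.1-fold between the highest and lowest neuron cluster. Glutamate and GABA clusters were both among the highest.

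Sox11 spanned a narrower range, 3.64-fold among neuron clusters. Its highest levels were in dividing cell-like cells, 352 CPM (298 to 414) in the dHet library and 253 CPM (218 to 292) in the control library, and in oligodendrocyte precursor-like cells, 322 CPM in dHet and 300 CPM in control cells. The leading genes of the dividing class included Epcam. Finer clustering had an unnamed group led by Epcam, with 4 dHet and 21 control cells, beside a dividing group of 34 dHet and 37 control cells. Its part in the difference between libraries was not tested, and Sox11 in the finer dividing group is given below. In oligodendrocyte-like cells, where Sox4 peaked, Sox11 was at 57.2 CPM in dHet and 77.4 CPM in control cells. The 2 genes thus had different peaks within the oligodendrocyte lineage. Among neurons the cluster led by Grp and Vip had the most Sox11, 180 CPM in dHet and 222 CPM in control cells, and the Lef1 and Ghrh clusters had 171 and 165 CPM in the dHet library and 184 and 168 CPM in the control library.

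Dcx was highest in oligodendrocyte precursor-like cells and was found in all neuron clusters. In the precursors it was at 139 CPM (111 to 172) in the dHet library and 145 CPM (121 to 173) in the control library, with a UMI in 51.4% of thinned dHet cells and 45.7% of thinned control cells. In neuron-like cells it was at 43.1 CPM in dHet and 42.8 CPM in control cells, with a UMI in 17.0% of thinned dHet cells and 16.2% of thinned control cells. The neuron clusters ran 3.18-fold between the lowest, the Agrp and Npy cluster (22.8 CPM in dHet and 19.8 CPM in control cells), and the highest, the Grp and Vip cluster (67.1 CPM in dHet and 71.3 CPM in control cells). Astrocyte-like cells had 6.09 CPM in dHet and 4.49 CPM in control cells, seen in 1.12% of thinned dHet cells and 0.319% of thinned control cells, and tanycyte-like cells had 2.10 CPM in dHet and 0.942 CPM in control cells. Other classes had more, with 64.3 CPM in dHet and 72.1 CPM in control dividing cell-like cells and 29.3 CPM in dHet and 45.0 CPM in control oligodendrocyte-like cells. Sox4, Sox11 and Dcx were all seen in the same thinned cell in 18.9% of dHet and 21.0% of control precursors, against 3.46% of dHet and 3.67% of control neuron-like cells.

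**Figure D4:**
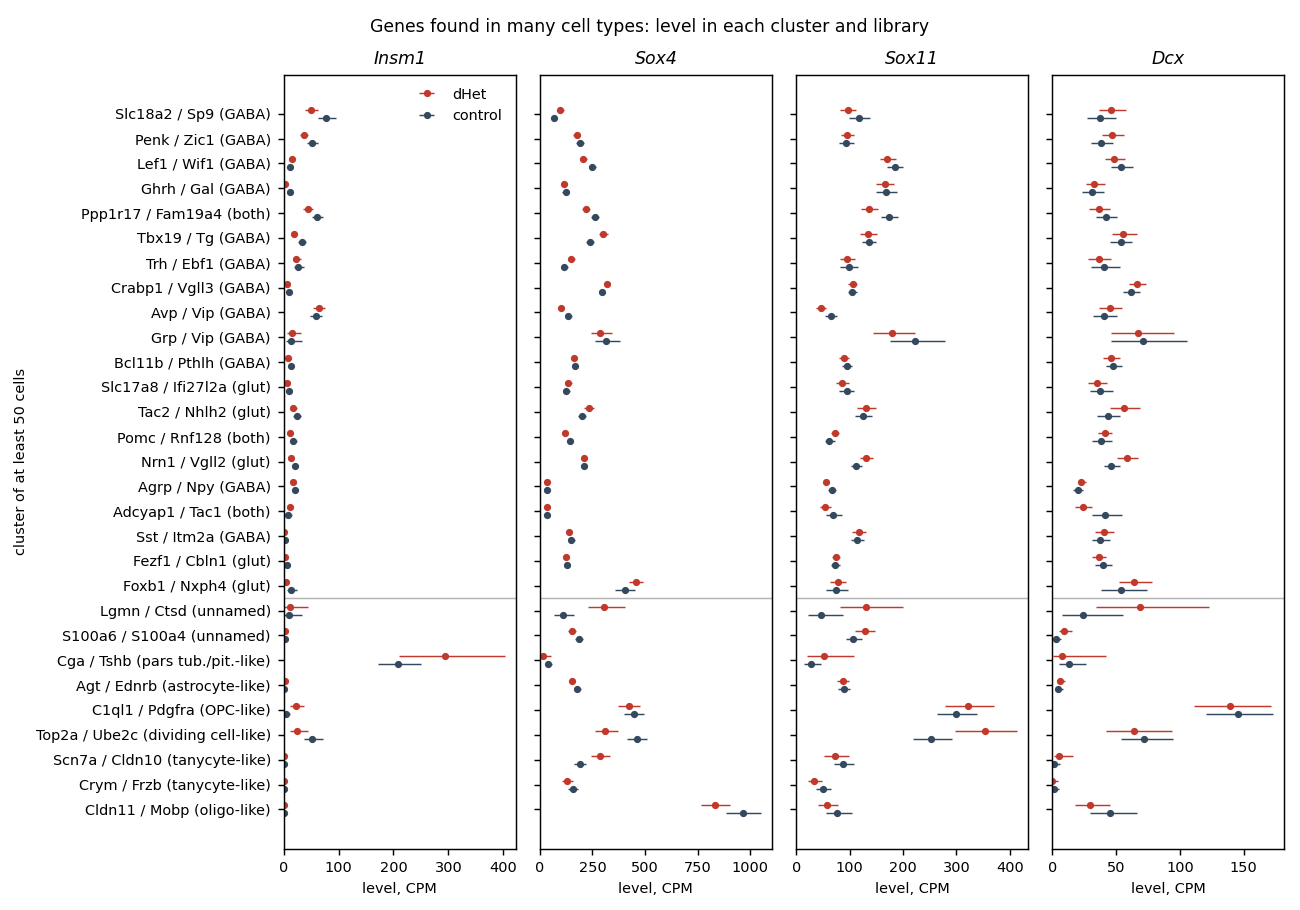
Level in CPM, with exact 95% counting intervals, of Insm1, Sox4, Sox11 and Dcx in each cluster of at least 50 cells, with dHet points above control points and a grey line that separates neuron-like clusters from the rest. Insm1 stands out in the Cga and Tshb cluster, Sox4 in the oligodendrocyte-like cluster, Dcx in the C1ql1 and Pdgfra (precursor-like) cluster, and Sox11 in that cluster and the Top2a (dividing cell-like) cluster.

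The group of GABA neurons led by Lhx6, Lmo1 and St18 in the finer clustering was high in several of these genes at once. Its summed level of Sox4, Sox11 and Dcx was 587 CPM in the dHet library and 694 CPM in the control library. Other neuron clusters had similar sums, with 597 CPM in dHet and 531 CPM in control cells of the Foxb1 cluster and 535 CPM in dHet and 610 CPM in control cells of the Grp and Vip cluster. All 3 were seen together in 15.9% of thinned dHet cells (10 of 63) and 14.1% of thinned control cells (11 of 78). Insm1 was at 31.6 CPM in dHet and 62.2 CPM in control cells there. St18, a zinc-finger gene of neuronal differentiation that belongs to the list of other neurogenic genes, was at 148 CPM in the dHet library and 99.7 CPM in the control library. Its 14 mature neuron genes summed to 12740 CPM in dHet and 10840 CPM in control cells, and its 9 dividing cell markers to 25.1 CPM in dHet and 37.5 CPM in control cells, against 6786 CPM in dHet and 6503 CPM in control cells of the dividing cluster led by Top2a.

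The dividing cell-like cells carried almost no Dlx transcripts. Over the whole class, Dlx1, Dlx2, Dlx6 and Dlx6os1 had 0 UMIs in both libraries, with upper limits of 8.79 CPM in the dHet library and 5.02 CPM in the control library, and Dlx5 had 2 UMIs in dHet cells and 0 in control cells. In the finer clustering the 34 dHet and 37 control cells led by Top2a, Ube2c and Mki67 had all 8 oligodendrocyte precursor markers, summed to 4571 CPM in dHet and 4876 CPM in control cells. Pdgfra, the growth factor receptor gene of precursors, was at 687 CPM in dHet and 758 CPM in control cells there. Sox11 was at 394 CPM in dHet and 346 CPM in control cells, Sox4 at 190 CPM in dHet and 244 CPM in control cells, and Dcx at 72.6 CPM in dHet and 88.2 CPM in control cells.

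Between the genotypes the 9 genes differed little over all cells. A gene was called when its level plus 5 CPM differed by at least 1.5-fold, provided the gene had 50 or more UMIs when both libraries were summed. None of the 9 passed over all cells, where 0.545% of 15609 genes did. None passed in neuron-like cells (0.283% of 14490 genes) or in the GABA clusters (0.395% of 13685 genes). Their median log2 ratio over all cells was -0.12, against -0.03 for all genes tested, and 8 of the 9 were lower in the dHet library. With a median below 0, most of all genes tested were lower too. The Dlx genes, whose levels ran together across clusters, are not separate observations.

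Insm1 and Dlx6os1 differed most in summed UMIs. Over all cells Insm1 had 1053 UMIs (14.7 CPM) in the dHet library and 1312 UMIs (20.8 CPM) in the control library, a ratio of 0.705 (0.650 to 0.765). Dlx6os1 had 790 UMIs in the dHet library and 950 UMIs in the control library, a ratio of 0.731 (0.664 to 0.804). Both lay below the control by more than counting error. In neuron-like cells the ratios were 0.714 for Insm1 (0.655 to 0.778) and 0.694 for Dlx6os1 (0.630 to 0.764), and in the GABA clusters they were 0.788 for Insm1 (0.709 to 0.875) and 0.790 for Dlx6os1 (0.707 to 0.882). The mix of neuron clusters differed between the libraries, and with those clusters weighted equally the neuron-like log2 ratios were -0.34 for Insm1 and -0.22 for Dlx6os1. Over all cells, with every cluster weighted equally, they were -0.07 for Insm1 and -0.08 for Dlx6os1, against -0.39 for Insm1 and -0.33 for Dlx6os1 from summed UMIs. That weighting counted the Cga and Tshb cluster, with 14 dHet and 39 control cells, as much as any other. Insm1 was at 225 CPM there over both libraries, against at most 62.1 CPM in neuron-like clusters with at least 50 cells. The part of that cluster in the Insm1 value was not tested.

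The protein-coding Dlx genes, Sox4 and Sox11 were lower by a smaller step. Dlx1 was at 40.9 CPM in the dHet library and 44.9 CPM in the control library, a ratio of 0.911 (0.865 to 0.960), Dlx2 at 19.9 CPM in dHet and 22.2 CPM in control cells (0.897, 0.833 to 0.967) and Dlx5 at 19.4 CPM in dHet and 21.9 CPM in control cells (0.885, 0.821 to 0.954). Dlx6, at 16.1 CPM in dHet and 16.9 CPM in control cells, had an interval that took in 1 (0.954, 0.877 to 1.04). Sox4 was at 171 CPM in dHet and 186 CPM in control cells (0.917, 0.894 to 0.941) and Sox11 at 97.8 CPM in dHet and 107 CPM in control cells (0.914, 0.884 to 0.946). Dcx did not share this direction, at 40.5 CPM in the dHet library and 39.6 CPM in the control library, a ratio of 1.02 (0.967 to 1.08). For Dlx2 the sign over all cells depended on the weighting of cells, with a log2 ratio of 0.06 as the mean of CPM per cell against -0.13 from summed UMIs. That of Sox11 over all cells also changed, to 0.0270 with clusters weighted equally, and that of Dlx6 to 0.0895 with cells thinned to 4000 UMIs.

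**Figure D5:**
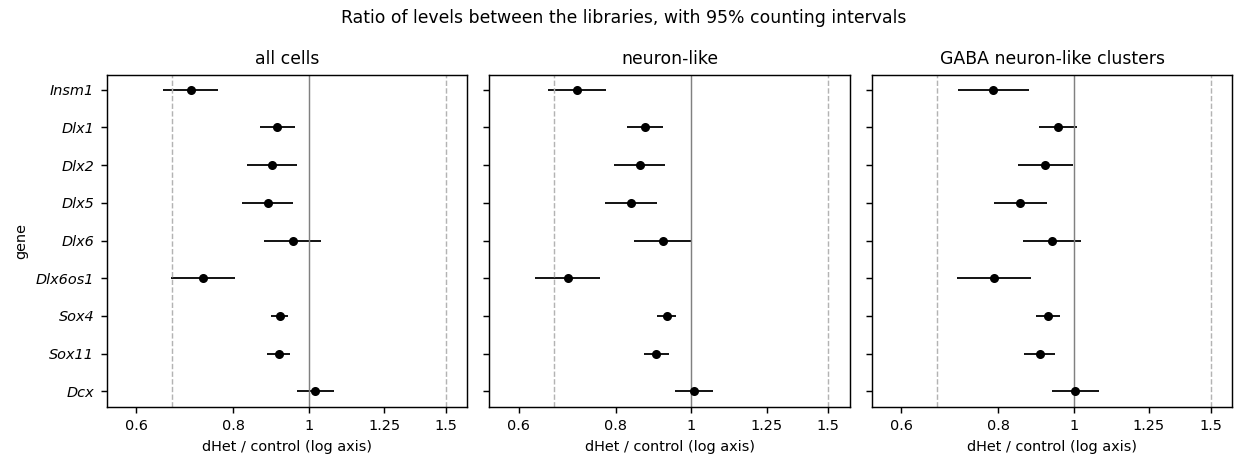
Ratio of each gene's level in the dHet library to that in the control library, on a log axis with exact 95% counting intervals, over all cells, neuron-like cells and GABA clusters. Dashed lines mark 1.5-fold in either direction. Insm1 and Dlx6os1 lie furthest to the left in each panel, and the intervals of Dcx over all cells take in 1.

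Cluster by cluster, Insm1 was lower in the dHet library in most neuron clusters compared. In neuron-like clusters with at least 50 cells in each library Insm1 was compared in 12 and was lower in the dHet library in 10, with a median ratio of 0.706 and a range of 0.562 to 1.35, and the interval lay below 1 in 7 of the 12. Over 9959 genes compared in at least 5 clusters, the median gene was lower in 56.25% of its clusters. How often the interval of any gene lay below 1 was not computed, so the counts of such intervals here have no base rate. Dlx6os1 was lower in 6 of 8 clusters (0.470 to 1.26), with an interval below 1 in 4 of them. Dlx5 was lower in 8 of 9 clusters (0.739 to 1.17), but its interval took in 1 in all 9. Sox4 was lower in 11 of 16 (0.741 to 1.29). Dlx1 was lower in 5 of 9, Dlx2 in 5 of 9, Dlx6 in 5 of 8 and Sox11 in 9 of 16, and Dcx was lower in 6 of 16. The clusters share 1 pool of animals per genotype and are not replicates of it.

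The 1.5-fold threshold was passed by a few members in single clusters. Among the neuron-like clusters compared, Insm1 passed in 1 of 12, Dlx6 in 1 of 8 and Dlx6os1 in 2 of 8. No other member passed in any of them, and 0.681% to 3.98% of all genes passed, depending on the cluster. In the Tbx19 cluster, where 2.27% of all genes passed, Insm1 had 42 UMIs in 117 dHet cells and 95 UMIs in 126 control cells, a ratio of 0.562 (0.381 to 0.816). Its log2 ratio of -0.69 was -0.46, inside the threshold, with 20 CPM added and -1.25 with cells thinned to 4000 UMIs. Dlx6os1 in the same cluster had 54 UMIs in dHet and 146 UMIs in control cells, a ratio of 0.470 (0.337 to 0.646), while its Dlx1 and Dlx6 ratios took in 1. In the Trh and Ebf1 cluster (3.9% of genes) Dlx6 had 41 UMIs in the dHet library and 69 in the control library, a ratio of 0.448 (0.297 to 0.669), and Dlx6os1 was at 36.2 CPM in dHet and 28.8 CPM in control cells. In the Ppp1r17 cluster (3.6% of genes) Dlx6os1 had 137 UMIs in dHet and 266 UMIs in control cells, a ratio of 0.605 (0.489 to 0.747). Its log2 ratio of -0.68 lay inside the threshold as the mean of CPM per cell (-0.53), with 20 CPM added (-0.581) and with cells thinned to 4000 UMIs (-0.561). In the finer groups of that cluster the ratio was 0.686 in the Lhx6 group and 0.774 in the Ppp1r17 group (5.87% of genes), and neither passed. Within the finer Lhx6 group, where 5.52% of genes passed, Insm1 was the member past the threshold, with 34 UMIs in dHet and 83 UMIs in control cells and a ratio of 0.507 (0.330 to 0.764).

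Finer clustering gave further calls in both directions. The Tbx19 cluster (2% of genes passed) kept both of its calls, with ratios of 0.563 for Insm1 and 0.503 for Dlx6os1. In the finer Trh and Ebf1 cluster (4.38% of genes), with 84 dHet and 51 control cells, Dlx6 was again lower at 0.523 (0.339 to 0.801). Dlx2 and Dlx6os1 were higher there, Dlx2 with 66 UMIs in dHet and 26 UMIs in control cells (1.83, 1.14 to 2.996) and Dlx6os1 with 59 UMIs in dHet and 22 UMIs in control cells (1.93, 1.17 to 3.31). Dlx6os1 was lower in a cluster led by Crabp1 and Nts (0.499, 0.289 to 0.849, where 1.39% of genes passed) and in one led by Tmem114 and Tac1 (0.453, 0.290 to 0.696, where 4.94% passed).

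Glia gave few values that could be compared. In astrocyte-like cells Sox4 and Sox11 had enough UMIs, and neither passed 1.5-fold, which 4.64% of all genes did. Sox4 was at 153 CPM in the dHet library and 174 CPM in the control library, and Sox11 at 85.6 CPM in dHet and 87.9 CPM in control cells. In oligodendrocyte precursor-like cells Sox4, Sox11 and Dcx were compared and none passed (6.69% of genes), with ratios of 0.945 for Sox4 (0.804 to 1.11), 1.07 for Sox11 (0.886 to 1.30) and 0.957 for Dcx (0.718 to 1.27). In tanycyte-like cells (5.83% of genes) neither Sox4, at 190 CPM in dHet and 171 CPM in control cells, nor Sox11, at 49.0 CPM in dHet and 67.8 CPM in control cells, passed, and the Sox11 ratio of 0.722 (0.535 to 0.968) lay below 1. Dlx genes had 0 or 1 UMI each in dHet tanycyte-like cells and at most 2 in control ones.

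Sox4 passed the threshold upwards in 2 clusters. One was a tanycyte-like group whose leading genes were Scn7a and Cldn10 (11.9% of genes passed), where it had 158 UMIs in 78 dHet cells and 186 UMIs in 102 control cells, a ratio of 1.52 (1.22 to 1.89). The 5 cells with most Sox4 in each library held 30.8% of these UMIs, and the log2 ratio of 0.59 was 0.37 without them and 0.07 as the mean of CPM per cell. In an unnamed shallow cluster led by Lgmn and Ctsd (30.1% of genes) the ratio was 2.82 (1.69 to 4.85), from 49 UMIs in dHet and 23 UMIs in control cells, and the log2 ratio of 1.45 was 0.53, inside the threshold, as the mean of CPM per cell. The 8 neuron markers in that cluster summed to 22750 CPM in the dHet library and 6937 CPM in the control library, and their part in the Sox4 value was not tested.

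Among other genes of neuronal differentiation, Gadd45g and Btg2 passed the threshold. Of 40 listed, 36 were in the table and 32 could be compared over all cells. None was higher and 2 were lower in the dHet library, where 0.41% of all genes were lower, Gadd45g at 39.8 CPM in dHet and 80.2 CPM in control cells (0.497, 0.474 to 0.520) and Btg2 at 44.4 CPM in dHet and 85.6 CPM in control cells (0.519, 0.497 to 0.542). Both are stress-inducible as well as neurogenic, since Gadd45g answers growth arrest and DNA damage and Btg2 is an immediate-early antiproliferative gene. The median log2 ratio of the 32 was -0.07, against -0.03 for all genes. In neuron-like cells, where 0.179% of all genes were lower, the same pair was lower, with ratios of 0.489 for Gadd45g (0.466 to 0.514) and 0.598 for Btg2 (0.562 to 0.637). No gene passed among 18 compared Dlx family and GABA lineage genes or among 14 mature neuron genes, over all cells and in neuron-like cells.

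In glia the same list split by class. In astrocyte-like cells 1 of 20 compared genes was lower, where 2.01% of all genes were, and 4 were higher, where 2.63% were, the cytoskeletal genes Stmn1, Stmn2 and Tubb3 and the RNA-binding protein gene Elavl2. Stmn2, a marker of growing axons, had 324 CPM in dHet and 201 CPM in control astrocyte-like cells. Neuron markers moved with them, since their 8 genes summed to 1954 CPM in the dHet library and 1384 CPM in the control library in the larger astrocyte-like cluster, and their part was not tested. In oligodendrocyte precursor-like cells 5 of 24 genes were lower, against 3.2% of all genes, Stmn2 (ratio 0.290, with 81.4% of its UMIs in the 5 highest cells of each library), Tubb3 (0.625), Tubb2b (0.634), Dclk1 (0.608) and Draxin (0.527, named after its value was seen). Dclk1 encodes a relative of doublecortin. The neuron markers there summed to 1889 CPM in dHet and 2338 CPM in control cells, and their part was not tested. In tanycyte-like cells Gadd45g (0.495) and Btg2 (0.545) were lower and Stmn2 (3.27) and Tubb3 (3.01) higher, of 15 genes compared, where 2.77% of all genes were lower and 3.06% higher. The neuron markers summed to 2480 CPM in dHet and 2423 CPM in control cells of the Crym cluster and to 2954 CPM in dHet and 2789 CPM in control cells of the Scn7a cluster, and their part was not tested.

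The genes whose levels followed each member most closely over the 29 clusters were found on log2(CPM + 5). For the Dlx locus genes they were other Dlx locus genes, from Dlx1 with Dlx2 (r = 0.981) and Dlx5 with Dlx6 (r = 0.952) down to Dlx6os1 with Dlx5 (r = 0.840). For Insm1 they were Emb (r = 0.824), Mthfd2 (r = 0.775) and Chga (r = 0.756), the last encoding chromogranin A of secretory granules. For Sox4 the closest was Gm26735 (r = 0.915), which overlaps it on the opposite strand, followed by Mex3b and Bax. Sox11 was followed by Wdr70, Khdrbs1 and Rfc3 (r of 0.770 to 0.763) and Dcx by Thoc7, Ssh2 and Bzw2 (r of 0.914 to 0.887). Insm1 and Sox4 ran in opposite directions at r = -0.34. The pattern of each member was much alike in the 2 libraries, with r between 0.852 for Dlx6os1 and 0.978 for Dlx5 over 28 clusters. These values are descriptions of clusters that share libraries and differ in depth.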

How the data were processed

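Per the file headers the deposited files were written by Cell Ranger 3.0.2, and per the submitters' processing notes reads were mapped to mm10. The deposited values are raw UMI counts per gene and cell, given by the authors as a matrix for each library and as 1 table that merges the cells of both. The sources used here do not say how cells were chosen for the merged table or whether counting used strand. The merged table was used, since 0 of 66762 entries of the 9 genes differed between the files. The members and lists were chosen with earlier results of these data known.

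Counts were scaled to 10000 per cell, and 2000 variable genes other than the 9, 30 principal components, 15 neighbours and Leiden resolution 1 gave the clusters (scanpy 1.11.5, igraph 0.11.9, Python 3.11.15). Classes needed 3 markers each seen in 25% of cells, and neurons 7 of 8. Levels are summed UMIs per 1000000 (CPM) with exact Poisson intervals, shares have Clopper-Pearson intervals and ratios exact conditional binomial ones (scipy 1.17.1). These cover counting error only, and molecules of 1 pool of animals are not replicates, so no test between genotypes was made. The named genes are the 9 members, up to 4 genes of each other list past 1.5-fold in a class, and the 3 genes most like each member. Any other gene named was chosen after its values were seen. Some genes, and values that need them, are not reported here. The scripts were tested on simulated data. Scrublet called 31 dHet and 23 control barcodes of the matrices, 0.779% of dHet and 0.642% of control barcodes past its filter. Of these, 25 dHet and 17 control barcodes were in the merged table, and the main analysis kept them.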

Additional observations from a re-analysis of the deposited data

Results flagged for a closer look

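Ratios of the same gene lay on opposite sides of 1 in different clusters for 4 members, with counting intervals that did not take in 1. For Dlx1 the dHet to control ratio was 0.692 (0.590 to 0.810) in the Ppp1r17 cluster and 1.44 (1.15 to 1.82) in the Bcl11b cluster. For Dlx2 it was 0.748 (0.597 to 0.934) in the Ppp1r17 cluster and 1.44 (1.02 to 2.05) in the Avp and Vip cluster. For Sox4 it was 0.741 (0.616 to 0.890) in the Avp and Vip cluster and 2.82 (1.69 to 4.85) in the shallow Lgmn cluster. For Sox11 it was 0.713 (0.542 to 0.936) in the Avp and Vip cluster and 1.16 (1.01 to 1.32) in the cluster led by Nrn1 and Vgll2. These pairs are extremes of many clusters, the intervals cover counting error only, and the difference between clusters was not tested.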

How the results depend on the processing

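No paired analysis was possible because each genotype has 1 library. Log2 ratios of dHet to control changed sign under some settings. Dlx2 over all cells was 0.0624 as the mean of CPM per cell and 0.00905 with cells thinned to 4000 UMIs, and Sox11 over all cells was 0.0270 with clusters weighted equally. With that weighting Sox4 was 0.0170 in neuron-like cells, 0.0124 in GABA clusters and 0.41 in astrocyte-like cells. Among astrocyte-like cells, a shallow cluster led by Selenop (23 dHet and 24 control cells) then weighed as much as the Agt cluster. The Agt cluster had 415 dHet and 401 control cells. Dlx6 with thinned cells was 0.0895 over all cells and 0.0182 in neuron-like cells. Sox11 in astrocyte-like cells, Sox4 in tanycyte-like cells, Sox11 in precursor-like cells and Dcx in GABA clusters and in precursor-like cells also changed sign under 1 or more settings, Dcx in precursor-like cells to 0.39 with thinned cells. The cause was not tested. With a minimum of 20 UMIs, 1 of 4 members compared passed 1.5-fold in astrocyte-like cells (Dlx1), where 5.54% of genes did. At Leiden resolution 0.5, 1 of 2 members compared passed in tanycyte-like cells (Sox4), where 11.9% of genes did. The Scn7a cluster, where Sox4 also passed, had that same share of genes. Insm1 ranged between -0.48 and -0.07 over all cells and between -0.52 and -0.23 in neuron-like cells, and Dlx6os1 between -0.42 and -0.08 over all cells and between -0.49 and -0.22 in neuron-like cells. Cluster values were compared at resolution 2 in the report, and not at resolution 0.5 or in the matrix cells. Dlx1 reached 10 CPM in 14 of 25 neuron clusters at resolution 2 and in 7 of 13 at 0.5. Depth limits genes with few UMIs, and with 1 pool per genotype no setting measures variation between animals.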
